A study of Mus musculus with 2 samples.

Results

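The miR-200 family, the miR-183 cluster and miR-203 are microRNAs best known from epithelia and sense organs. All 9 genes were taken by symbol (Mir200b, Mir200a, Mir429, Mir200c, Mir141, Mir183, Mir96, Mir182 and Mir203) from the 2202 microRNA genes counted. Small RNA was sequenced in hippocampal tissue of adult male mice, aged 8 to 10 months, whose strain is labelled 5xFAD/CAST. The labels call the tissue a layer of the hippocampus. The design held 1 group of 2 libraries, called replicate 1 and replicate 2 here, and no control was analysed. 5xFAD mice model Alzheimer disease with transgenes driven by the neuronal Thy1 promoter, and CAST is a wild-derived strain. The labels do not state the transgene status of the tissues. In the labels the libraries are numbered biological replicates. Each has a tissue record of its own, but both point to 1 donor record, so separate animals cannot be assumed. The genes were chosen with the difference between these libraries already known. Their read ratios are therefore a description with no test, and the intervals given are exact 95% intervals that cover counting error only.

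A microRNA pairs with target messages mainly through its seed, bases 2 to 8 from the 5′ end, and represses them. The miR-200 family keeps epithelial cells in their state by repressing ZEB1 and ZEB2, and these factors in turn repress the miR-200 genes through E-box motifs. The miR-183 cluster serves photoreceptors, hair cells and other sensory cells, and miR-203 is known for restraining the progenitor factor p63 in skin. None of them is among the microRNAs best known from mature forebrain neurons and glia.

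The mature sequences from RefSeq (GRCm38.p6) are shown because they define which members share targets and whether reads could be told apart. All 9 genes matched the table by symbol, and the 9 hairpins were identical to those of the annotation used for counting. The arm shown for each gene is the one usually taken as its main product, written 5′ to 3′ with the seed in capitals. The counts are per hairpin and do not separate the arms.
miR-200b-3p: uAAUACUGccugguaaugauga
miR-200c-3p: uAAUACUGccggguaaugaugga
miR-429-3p: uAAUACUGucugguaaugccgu
miR-200a-3p: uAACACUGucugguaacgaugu
miR-141-3p: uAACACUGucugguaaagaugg
miR-183-5p: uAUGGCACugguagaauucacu
miR-96-5p: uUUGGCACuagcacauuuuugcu
miR-182-5p: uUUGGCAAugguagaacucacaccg
miR-203-3p: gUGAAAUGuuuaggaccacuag

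The 9 genes carry 6 seeds. MiR-200b, miR-200c and miR-429 share AAUACUG, and miR-200a and miR-141 share AACACUG, which differs from it by U4C (positions counted from 1 at the 5′ end of the mature microRNA, with the base of miR-200b first). MiR-200b and miR-200c differ by U11G and A22G over the 22 positions compared, and miR-200a and miR-141 by C17A and U22G. Within the miR-183 cluster, miR-183 and miR-96 differ in the seed by A2U, and miR-96 and miR-182 by C8A. Outside the seed miR-183 resembles miR-182 more than miR-96: of the 15 other positions compared, 13 are the same between miR-183 and miR-182, against 7 between miR-183 and miR-96. Of the 1738 mature sequences in the RefSeq table, miR-1271-5p was the only other to carry a seed shown here, that of miR-96. Its gene, listed as Gm24195, had 0 reads in both libraries. The longest stretch that any of the 9 hairpins shared with another microRNA gene on either strand was 17 bases, between Mir200a and Mir141, shorter than each mature sequence shown.

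The genes lie in 3 clusters and 1 single locus of mm10. Mir200b (ENSMUSG00000065549.3; chromosome 4, 156055681 to 156055750), Mir200a (ENSMUSG00000065400.1; 156054896 to 156054985) and Mir429 (ENSMUSG00000065427.1; 156053905 to 156053987) span 1.85 kb of the minus strand. All of them are in an intron of Ttll10, and within the noncoding RNA Gm13648 Mir429 is exonic while Mir200b and Mir200a are intronic. Mir200c (ENSMUSG00000065462.3; chromosome 6, 124718322 to 124718390) and Mir141 (ENSMUSG00000065474.1; 124717914 to 124717985) lie 336 bases apart on the minus strand in an intron of the noncoding gene Gm15884. Mir141 also overlaps in part the exon of Gm29008. Mir183 (ENSMUSG00000065619.2; chromosome 6, 30169668 to 30169737), Mir96 (ENSMUSG00000065586.1; 30169446 to 30169551) and Mir182 (ENSMUSG00000076361.1; 30165918 to 30165992) span 3.82 kb outside other annotated genes. The noncoding gene Rncr4 begins 3156 bases from Mir183 on the other strand. This cluster is 94.5 Mb away from Mir141 on the same chromosome. Mir203 (ENSMUSG00000065574.1; chromosome 12, 112130880 to 112130955) lies on the plus strand outside other annotated genes, 3321 bases from the end of Aspg.

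Of the primary transcripts, RefSeq gave a window around the start of Gm13648, the RNA that holds Mir200b, Mir200a and Mir429. The window is shown because these 3 genes can come from 1 transcript. It covers 250 bases before to 50 bases after the start (GRCm38.p6, chr4:156059753-156060052, minus strand), and the capitals mark the E-box CACCTG, the motif known to be bound by ZEB factors.
Gm13648: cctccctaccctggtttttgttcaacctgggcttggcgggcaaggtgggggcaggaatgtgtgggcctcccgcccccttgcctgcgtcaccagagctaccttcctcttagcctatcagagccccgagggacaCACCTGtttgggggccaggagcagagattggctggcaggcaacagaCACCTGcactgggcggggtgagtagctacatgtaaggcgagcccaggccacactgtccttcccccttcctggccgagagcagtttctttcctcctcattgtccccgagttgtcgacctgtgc
The motif was searched as CACCTG and, for the other strand, CAGGTG. It occurred 2 times, beginning 118 and 72 bases before the start. Of 32851 such windows in the RefSeq table, 20.2% held at least 1 match and 2.88% held at least 2. A match describes the letters and does not show binding.

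Replicate 1 held 3421977 reads assigned to microRNA genes and replicate 2 held 2820468, so a gene with a count of 0 could still hold up to 3 reads, or 0.877 and 1.06 CPM. CPM (counts per 1e6) takes the assigned reads as the library size. In each library the rows that name no gene held most reads (64.8% and 67.0%). Unmapped reads made up 16.6% and 22.6%, and reads mapped to more than 1 place 41.6% and 38.2%. The neuron list, used to check the tissue label, had 13 of 17 genes detected, against 17.7% of all microRNA genes. It summed to 33952 CPM in replicate 1 and 35573 in replicate 2. Mir124a-2 and Mir124a-3 were at 0 in both libraries. They are copies of a microRNA gene, and reads mapped to more than 1 place were not assigned to any gene.

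The 9 genes took a small part of the assigned reads, and all of them were lower in replicate 2. Together they had 3291 reads in replicate 1 and 554 in replicate 2. Their share of assigned reads was 0.0962% in replicate 1 (0.0929 to 0.0995) and 0.0196% in replicate 2 (0.0180 to 0.0213), or 0.0579% ± 0.0541 (SD, n = 2). The SD is nearly as large as the mean, because 1 library held most of the reads. At least 1 read was assigned to each gene in each library. With a minimum of 10 reads in both libraries, 7 of the 9 were detected, against 17.7% of all microRNA genes. Mir141 and Mir96 missed the minimum in replicate 2. Mir200a, with 89 and 16 reads, lay just inside it, and Mir141, with 71 and 5 reads, just outside.

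**Figure D1:**
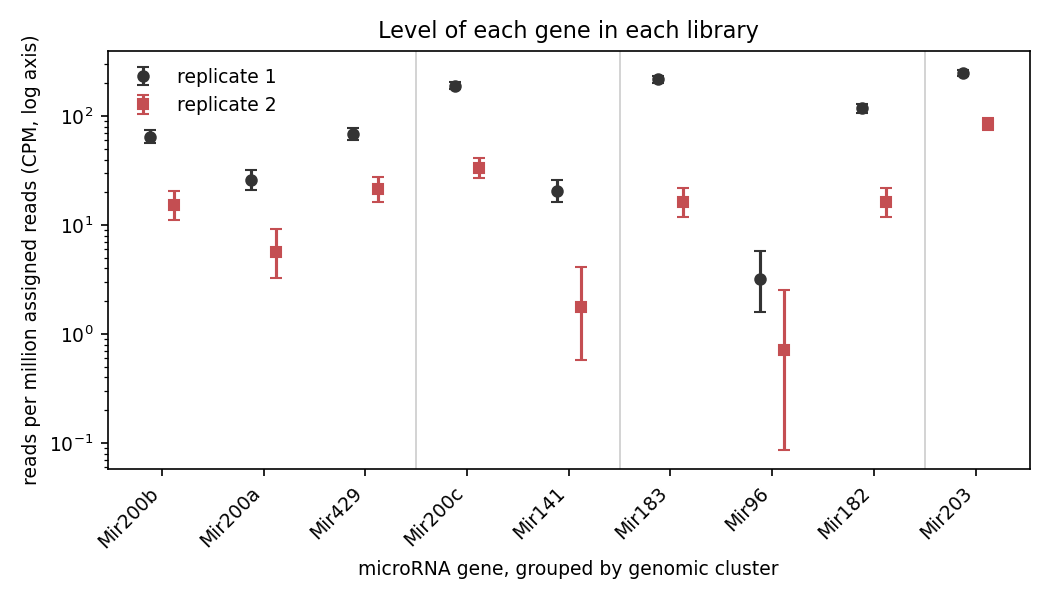
CPM of each of the 9 genes (log axis) in replicate 1 (circles) and replicate 2 (squares), with exact 95% intervals from the counts. Each gene was lower in replicate 2, and the intervals of the 2 libraries overlap for Mir96 alone.

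Mir203 was the most abundant member, with 854 reads (250 CPM) in replicate 1 and 241 reads (85.4 CPM) in replicate 2. Its mean was 168 ± 116 CPM (SD, n = 2), and it ranked 167 of 389 detected genes by mean CPM. By point estimate it was also the member whose libraries were closest, 3.13-fold lower in replicate 2 (2.71 to 3.62). Ratios between the libraries are on counts scaled by TMM, a method that sets aside genes with extreme ratios, and are replicate 2 over replicate 1.

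Mir183 had 748 reads (219 CPM) in replicate 1 and 46 reads (16.3 CPM) in replicate 2. It was thus the second most abundant member in replicate 1, but level with Mir182 in replicate 2. The mean was 117 ± 143 CPM, and the gene was 14.4-fold lower in replicate 2 (10.7 to 19.8), the furthest apart of the members by point estimate. The intervals of Mir182, Mir141 and Mir96 overlap that of Mir183. Mir182, its neighbour, known with Mir183 from photoreceptors, had 406 and 46 reads (119 and 16.3 CPM). Its mean was 67.5 ± 72.4 CPM, and it was 7.79-fold lower in replicate 2 (5.73 to 10.8). Mir96, in which seed mutations cause hearing loss, was the scarcest of the 9 genes. It had 11 and 2 reads (3.21 and 0.709 CPM), a ratio of 4.86-fold (1.06 to 45.1). Its replicate 2 count lies below the limit that a count of 0 allows, so the size of its difference was not resolved at this depth.

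Mir200c led the miR-200 family. It had 653 reads (191 CPM) in replicate 1 and 95 reads (33.7 CPM) in replicate 2, with a mean of 112 ± 111 CPM, and was 6.07-fold lower in replicate 2 (4.89 to 7.61). Its partner Mir141 had 71 and 5 reads (20.7 and 1.77 CPM). That is a ratio of 12.5-fold, with a wide interval of 5.13 to 39.8 because of the 5 reads.

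The chromosome 4 genes of the family were closer between the libraries than the Mir200c cluster by point estimate. Mir429 had 237 and 60 reads (69.3 and 21.3 CPM), a mean of 45.3 ± 33.9 CPM, and was 3.49-fold lower in replicate 2 (2.62 to 4.71). Mir200b had 222 and 43 reads (64.9 and 15.2 CPM), a mean of 40.1 ± 35.1 CPM, and was 4.56-fold lower (3.28 to 6.47). Mir200a had 89 and 16 reads (26.0 and 5.67 CPM), a mean of 15.8 ± 14.4 CPM, and was 4.91-fold lower (2.86 to 8.96). The intervals of these 3 genes overlap each other.

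By mean CPM the order was Mir203, Mir183, Mir200c, Mir182, Mir429, Mir200b, Mir200a, Mir141 and Mir96. No neighbours in this order differed by more than the larger of their SDs between libraries. Within replicate 1 the counting intervals separated all neighbours except Mir429 from Mir200b (ratio 1.07, 0.885 to 1.29) and Mir200a from Mir141 (1.25, 0.907 to 1.74). In replicate 2 Mir200c followed Mir203, at 95 against 241 reads, and Mir429, Mir182, Mir183 and Mir200b, between 60 and 43 reads, were not separated from their neighbours in that range, nor was Mir141 from Mir96. Each read stands for a short RNA of similar length, so no length scaling was applied. How evenly the library protocol captured different sequences was not tested.

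Against all detected genes, the members lay at the low end of the ratios. The median log2 ratio of the 7 detected members was -2.30, against 0.053 over all 389 detected genes, whose log2 ratios had an SD of 0.92. All 7 were lower in replicate 2, as were 48.6% of detected genes, and all 7 were at least 2-fold lower, as were 10.8%. At least 4-fold lower were 5 of the 7, Mir429 and Mir203 being the others, and 3.86% of detected genes. Counted from the lowest of the 389 log2 ratios, Mir183 came at place 2, Mir182 at 3, Mir200c at 6, Mir200a at 8, Mir200b at 10, Mir429 at 16 and Mir203 at 17. These counts describe the difference for which the genes were chosen and support nothing further. In bulk tissue, fewer cells of a type and less RNA per cell cannot be told apart.

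**Figure D2:**
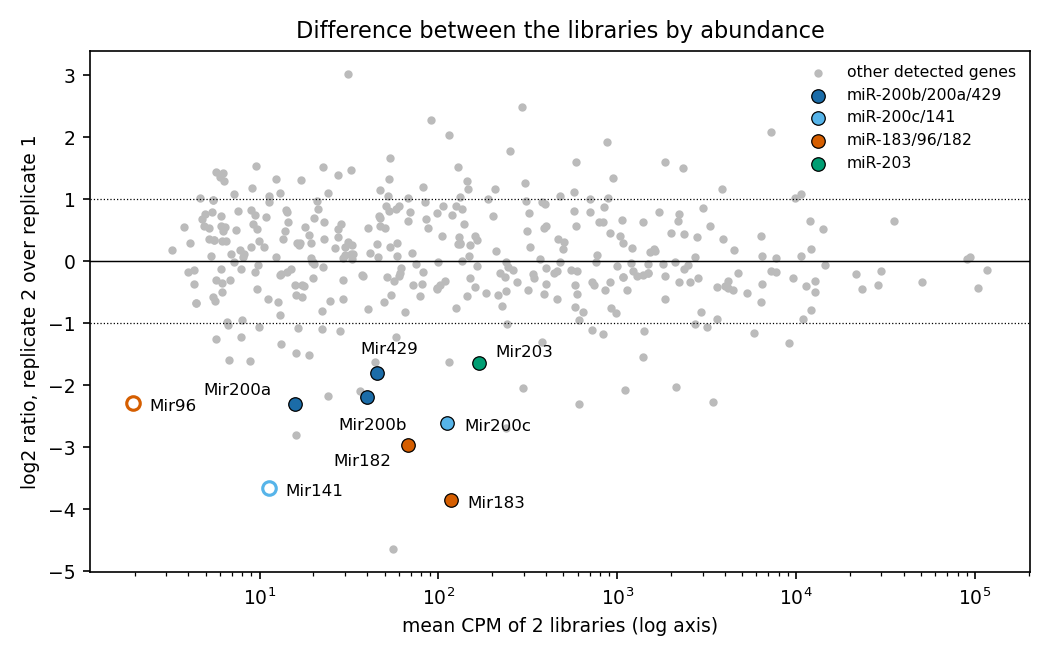
Log2 ratio of replicate 2 over replicate 1 (TMM-scaled counts) against mean CPM (log axis) for the 389 detected genes, with the members in colour by cluster and the others in grey. Open circles are Mir141 and Mir96, which missed the minimum of 10 reads in replicate 2; dotted lines mark 2-fold, and all 9 members lie below the lower line.

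The make-up of the group differed between the libraries, mainly through the miR-183 cluster and Mir203. The miR-183 cluster held 35.4% of the reads of the 9 genes in replicate 1 (33.8 to 37.1) and 17.0% in replicate 2 (13.9 to 20.4). Mir203 held 25.9% in replicate 1 (24.5 to 27.5) and 43.5% in replicate 2 (39.3 to 47.7). These intervals do not overlap, and the miR-183 cluster was 10.9-fold lower in replicate 2 (8.86 to 13.6) against 3.13-fold for Mir203.

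The miR-200 family as a whole held 38.7% (37.0 to 40.3) and 39.5% (35.4 to 43.7) of the group's reads, but its clusters differed. The chromosome 4 cluster held 16.7% in replicate 1 (15.4 to 18.0) and 21.5% in replicate 2 (18.1 to 25.1), with intervals that do not overlap. The chromosome 6 cluster of Mir200c held 22.0% (20.6 to 23.5) and 18.1% (14.9 to 21.5), with intervals that do. The family was 5.13-fold lower in replicate 2 (4.44 to 5.95). Its chromosome 4 cluster was 4.07-fold lower (3.33 to 5.00) and its chromosome 6 cluster 6.39-fold lower (5.18 to 7.96). Grouped by seed, the 3 genes with AAUACUG held 87.4% of the family's reads in replicate 1 (85.5 to 89.2) and 90.4% in replicate 2 (85.7 to 94.0). The 2 genes with AACACUG held the rest, so the balance of the seeds did not differ beyond counting error.

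Within clusters, only the miR-183 cluster had proportions that differed between the libraries beyond counting error. Mir183 held 64.2% of that cluster in replicate 1 (61.4 to 67.0) and 48.9% in replicate 2 (38.5 to 59.5), and Mir182 held 34.8% (32.1 to 37.7) and 48.9% (38.5 to 59.5). Mir96 held 0.944% and 2.13% of the cluster, with intervals that overlap. Mir200c held 90.2% and 95.0% of its cluster with Mir141. In the chromosome 4 cluster Mir429 held 43.2% and 50.4%, Mir200b 40.5% and 36.1%, and Mir200a 16.2% and 13.4%. For these 5 genes the intervals of the libraries overlap. Those of replicate 2 can be wide, such as 41.1 to 59.7 for Mir429, so smaller shifts in proportion were not resolved.

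**Figure D3:**
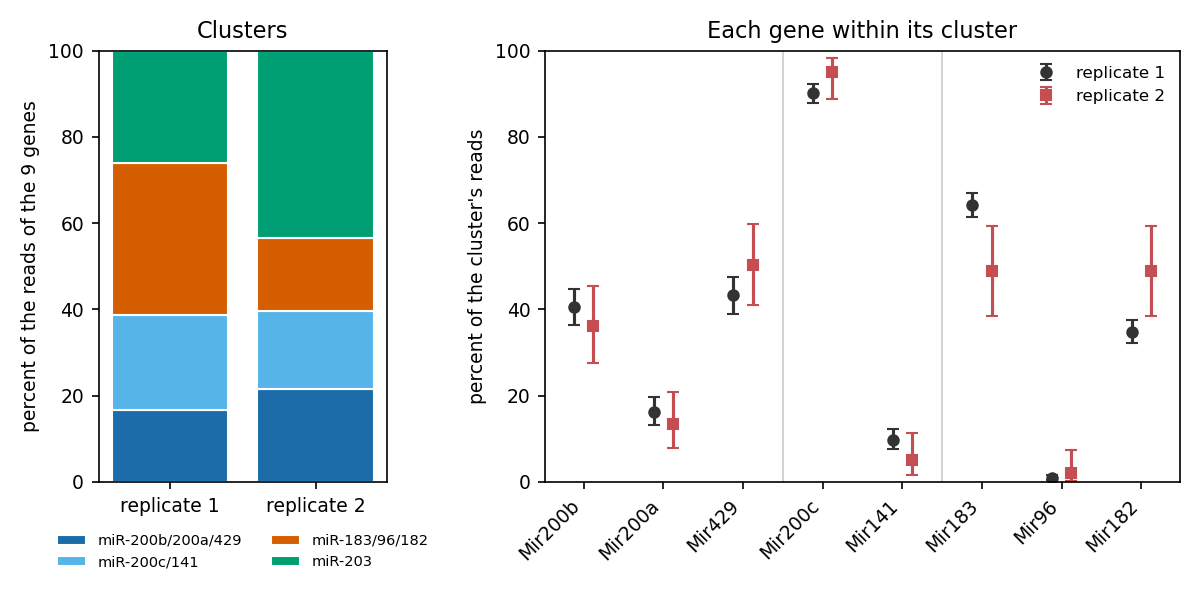
Left, percent of the reads of the 9 genes held by each cluster in each library; right, percent of its cluster's reads held by each gene, with exact 95% intervals. The miR-183 cluster held 35.4% of the reads in replicate 1 and 17.0% in replicate 2, and Mir183 and Mir182 are the genes whose intervals do not overlap on the right.

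The detected genes of the other epithelial list were closer between the libraries than the detected members. The members were chosen with their difference known, so this contrast shows nothing particular to them. The list had 4 of 8 genes detected, against 17.7% of all microRNA genes. It summed to 1087 CPM in replicate 1 and 812 in replicate 2. Mir375, known from pancreatic islets and pituitary, had 2416 and 1287 reads (581 ± 177 CPM) and a log2 ratio of -0.73. Mir31 had 1234 and 907 reads (341 ± 27.6 CPM) and a log2 ratio of -0.26, and Mir194-2, a gut and kidney microRNA, had 27 and 51 reads (13.0 ± 7.21 CPM) and a log2 ratio of 1.10. Mir194-2 has a copy in the list, Mir194-1 (1 and 0 reads), so its ratio is uncertain. None of the 4 detected genes was at least 2-fold lower, against 10.8% of all detected genes, and a count over 4 genes says little. The median log2 ratio of the 4 was -0.28. Mir205, a microRNA of stratified epithelia, had 8 and 5 reads, and Mir215 was at 0 in both libraries.

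MicroRNAs listed for other cells that hippocampal tissue can hold were also compared. Whether they come from those cells alone in this tissue was not tested. The choroid plexus and ependyma list had 5 of 7 genes detected, against 17.7% of all microRNA genes. It summed to 3416 CPM in replicate 1 and 1638 in replicate 2. Mir34c, a microRNA of ciliated cells, had 6997 and 2114 reads (1397 ± 916 CPM) and a log2 ratio of -1.55. Mir204, abundant in choroid plexus, had 4214 and 2084 reads (985 ± 348 CPM) and a log2 ratio of -0.84, while Mir211 had 251 and 215 reads (74.8 ± 2.04 CPM) and a log2 ratio of -0.043. Mir449a, like Mir34c a microRNA of ciliated cells, was higher in replicate 2, with 109 and 139 reads and a log2 ratio of 0.53. Of the 5 detected genes, 1 (Mir34c) was at least 2-fold lower, against 10.8% of all detected genes. The median log2 ratio of the 5 was -0.60, and Mir449b was at 0 in both libraries.

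The vascular list had 3 of 4 genes detected, against 17.7% of all microRNA genes. It summed to 21670 CPM in replicate 1 and 13158 in replicate 2. Mir143, of smooth muscle and pericytes, had 43770 and 15437 reads (9132 ± 5174 CPM) and a log2 ratio of -1.32. The endothelial Mir126a had 26933 and 21053 reads (7667 ± 287 CPM) and a log2 ratio of -0.18. Mir145a, neighbour of Mir143, had 3452 and 620 reads (614 ± 558 CPM) and a log2 ratio of -2.30. Of these 3 genes 2 were at least 2-fold lower, against 10.8% of all detected genes. Mir126b, which lies opposite Mir126a, had 0 and 2 reads.

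The erythroid list had 3 of 3 genes detected, against 17.7% of all microRNA genes. It summed to 47.6 CPM in replicate 1 and 59.9 in replicate 2. Mir451a had 74 and 94 reads (27.5 ± 8.28 CPM), Mir486 had 68 and 58 reads (20.2 ± 0.490 CPM), and Mir144 had 21 and 17 reads (6.08 ± 0.0774 CPM). None of them was at least 2-fold lower, against 10.8% of all detected genes, and a count over 3 genes says little. In the neuron list 5 of 13 detected genes were lower in replicate 2 and 8 higher, and their median log2 ratio was 0.45. Over all detected genes 48.6% were lower. At least 2-fold lower was Mir9-1 (-1.34), and at least 2-fold higher was Mir153 (1.26). Of all 389 detected genes, 42 were at least 2-fold lower and 46 at least 2-fold higher. Mir9-1, with 63 and 22 reads, has other copies in the list. Reads mapped to more than 1 place were not assigned, so its ratio is uncertain. The neuron list was led by Mir132 (46907 and 33266 reads, 12751 ± 1353 CPM, log2 ratio -0.32). Next were Mir128-1 (25170 and 19874 reads, 7201 ± 219 CPM, -0.16) and Mir137 (20484 and 19270 reads, 6409 ± 598 CPM, 0.092). Mir128-1 also has a copy in the list, Mir128-2, so its ratio is uncertain too. In CPM the other epithelial, choroid plexus and vascular sums were thus lower in replicate 2, as was that of the 9 genes. Median log2 ratios of these lists, in that order, were -0.28, -0.60 and -1.32, against -2.30 for the detected members, chosen for their difference. But Mir31, Mir194-2, Mir211, Mir449a and Mir126a in these lists were close between the libraries or higher in replicate 2. The erythroid sum in CPM was higher in replicate 2, mainly through Mir451a (21.6 and 33.3 CPM). Mir486 (19.9 and 20.6 CPM) and Mir144 (6.14 and 6.03 CPM) were close between the libraries. On the TMM scale the log2 ratios of these 3 genes were 0.53, -0.050 and -0.12. The erythroid sum rests on few reads, and whether it differed beyond counting error was not tested. The neuron sum was slightly higher in CPM and slightly lower on the TMM scale, at 35136.5 and 34373.3. The part of any other cell type in the difference was not tested.

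**Figure D4:**
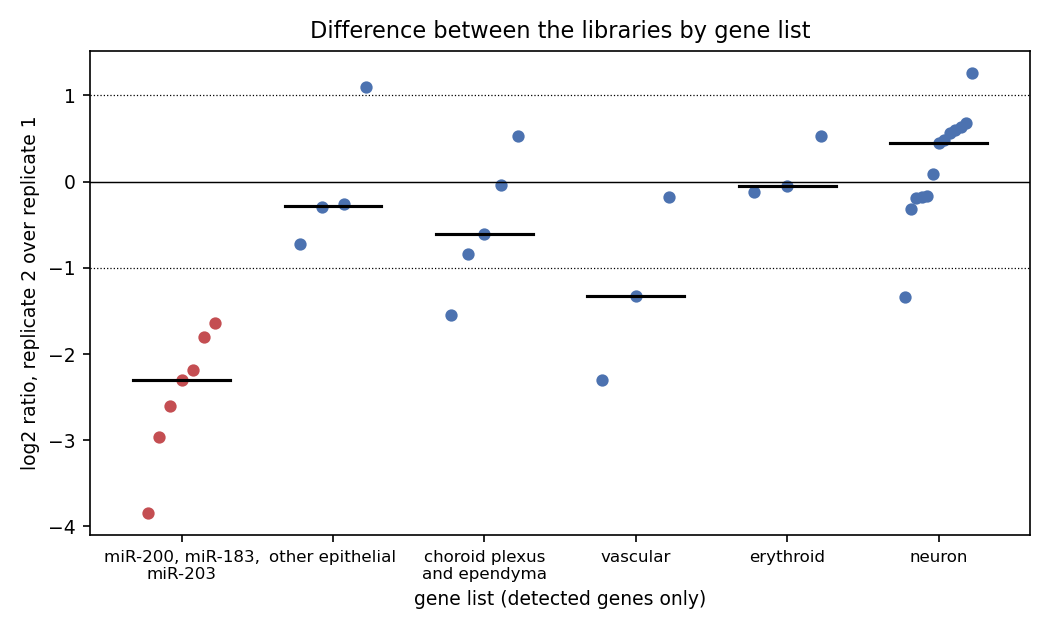
Log2 ratio of replicate 2 over replicate 1 for each detected gene of each list, with the list's median as a bar and 2-fold as dotted lines. The 7 detected members lie between -3.84 and -1.65, and the ranges of the choroid plexus, vascular and neuron lists extend below -1.

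With 2 libraries, the likeness of another gene to the members reduces to its log2 ratio. The 5 genes closest to the members' median, among those detected with at least 100 reads over both libraries, were Mir145a (-2.30), Mir674 (-2.27), Mir448 (-2.17), Mir26a-2 (-2.10) and Mir376a (-2.08). Mir674 had 19164 and 3496 reads, Mir448 had 133 and 26, Mir26a-2 had 199 and 41, and Mir376a had 6014 and 1257. Mir26a-2 has a near-identical copy and is uncertain.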

How the data were processed

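The files deposited by the authors hold, for each of the 2 libraries, unnormalized counts of reads at every microRNA gene: unstranded, sense and antisense. Reads were placed on mm10 with GENCODE M21, per the text notes deposited with the libraries. Aligner, counter and trimming were not given in the sources used here. Sense counts were used. The 4 rows that name no gene (64.8% and 67.0% of reads) were left out of library sizes. All 2202 IDs matched GENCODE M21. Molecular identifiers are not recorded in the tables, so reads copied from the same molecule could not be told apart. The intervals take each read as independent and cover counting error only, so they can be too narrow.

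CPM used the assigned reads, 3421977 and 2820468. Detection required 10 reads in both libraries. Log2 ratios were taken on counts scaled with TMM over detected genes (edgeR 4.0.16, R 4.3.3), without a pseudocount. Exact 95% Clopper-Pearson intervals came from SciPy 1.17.1. With 1 group there was no contrast to test, and no p-value is given. Per the labels the libraries are biological replicates, but with 1 donor record, so their spread may be technical. The ratio and interval formulas were tried on simulated counts with counting error only, scaled on genes known to be unchanged. TMM and spread between libraries were not part of that trial. Members and lists were chosen with earlier results of these data known. Named are the 9 members, the 3 most abundant genes of each list, and the 5 genes closest to the members' median ratio; Gm24195, Mir449a, Mir9-1, Mir153 and list genes with few or no reads were named after their values were seen. Alternatives changed the scaling (DESeq2 1.42.0 among them), the minimum, the pseudocount, the count column, the library size, the libraries used and a hairpin GC fit.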

Additional observations from a re-analysis of the deposited data

How the results depend on the processing

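The median log2 ratio of the detected members was -2.30 and lay between -2.47 and -2.11 under the 8 alternatives run, and the number at least 2-fold lower in replicate 2 was 6 to 8, against 7. The lowest of these counts came with a minimum of 20 reads, which leaves 6 members detected, and the highest with a minimum of 5 reads. After subtracting a linear fit on hairpin GC content, which ran from 45.7% to 55.1% in the members, the median was -2.33. Over the 9 genes, all 54 recomputed log2 ratios stayed below 0 and within their counting intervals. The summed share depends on the library: it was 0.0196% without replicate 1 and 0.0962% without replicate 2, against 0.0579%. With all reads as library size it was 0.0202%, since most reads carry no gene name. No paired analysis was possible because there is only 1 group. Depth limits Mir96 and Mir141, with 2 and 5 reads in replicate 2.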

Other observations

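In the opposite-strand column, Mir203 had 2 reads in replicate 1 and 1 in replicate 2, and the other 8 genes had 0, at or below the 3 reads that a count of 0 allows. The counts of the members therefore hardly depended on the strand setting.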
